A study of Homo sapiens with 22 samples.

Results

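HN-6 is an established line of squamous cell carcinoma from the human head and neck. The libraries described here are its controls: the 11 of 22 libraries in the series in which neither SMYD3 nor UHRF1 had been depleted, chosen by their labels alone. They form 4 groups. The siNC-U group (3 libraries) received a negative control siRNA, named siNC in the labels, in the UHRF1 siRNA experiment. The siNC-S group (3 libraries) received the siNC of the SMYD3 siRNA experiment. The PBS group (2 libraries) received phosphate-buffered saline, the vehicle of an antisense oligonucleotide, and the parental group (3 libraries) was the untransfected line set against a SMYD3 knockout clone. The siRNA and PBS exposures lasted 72 h. All 4 groups were also exposed to human interferon-β (1000 U/ml) over the last 24 h. No group shows the line without interferon, so a high level below is a level under interferon and not a response to it.

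The depleted arms of the series are a SMYD3 knockout, a SMYD3 siRNA, a SMYD3 antisense oligonucleotide and a UHRF1 siRNA, each deposited with its control in a table of its own. Reads in genes numbered 59936868 to 62921144 in siNC-U, 32420332 to 54083559 in siNC-S, 30911040 to 32045158 in PBS and 24783605 to 36286933 in parental libraries. The tables were not counted alike: the siNC-U and PBS tables hold 0 reads of the mitochondrial genome, against 6.64% to 10.2% of reads in siNC-S and 14.9% to 15.7% in parental libraries, so those genes were left out and every level was rescaled over the 17059 gene symbols that all 4 tables list. Each control group is also 1 experiment. A difference between groups can therefore come from the treatment, the experiment or the authors' counting, and these cannot be told apart. Since each is a bulk library of 1 line, fewer cells in a state and less RNA per cell cannot be told apart either.

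Type I interferons such as interferon-β bind the IFNAR1 and IFNAR2 receptor pair, which activates the kinases JAK1 and TYK2. These phosphorylate STAT factors such as STAT2, which join IRF9 in a complex that enters the nucleus and binds the interferon-stimulated response element in the promoters of interferon-stimulated genes. The products block steps of virus replication, degrade or modify viral RNA and protein, load peptides on MHC class I molecules and attract lymphocytes. Squamous carcinoma cells of the head and neck keep much of the keratin, adhesion and growth factor receptor program of the stratified epithelium they come from, and their response to interferon is studied because it bears on how tumours are seen by T cells.

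Promoters of several abundant interferon-stimulated genes are shown because they hold the letters to which that complex binds and because the levels of these genes are described below. In a 300-base window around the RefSeq transcription start (250 bases before it and 50 after, GRCh38.p14), each line gives 30 bases read 5′ to 3′ on the strand of the gene, with the match in capitals. The letters searched, on either strand, were GAAA, any 2 bases and GAAA again.
IFI6: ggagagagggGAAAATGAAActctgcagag
IFI6, second copy: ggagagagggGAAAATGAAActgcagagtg
IFITM3: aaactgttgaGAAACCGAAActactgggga
ISG15: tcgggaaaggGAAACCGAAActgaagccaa
LGALS3BP: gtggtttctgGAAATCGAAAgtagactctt
IFIT1: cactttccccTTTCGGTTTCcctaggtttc
IFI27: atgtctgcagTTTCGGTTTCctggaaaatg
These lie at chr1:27672329-27672358 and chr1:27672288-27672317 on the minus strand (IFI6), chr11:320876-320905 on the minus strand (IFITM3), chr1:1013380-1013409 on the plus strand (ISG15), chr17:78979962-78979991 on the minus strand (LGALS3BP), chr10:89392510-89392539 on the plus strand (IFIT1) and chr14:94110618-94110647 on the plus strand (IFI27). IFIT1 and IFI27 carry the shown match on the opposite strand, hence its reversed letters. All 7 lie before the annotated start.

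Of the 68 interferon-stimulated genes in the list used here, 54 had a window, and 34 of those (63.0%) held this motif on either strand, against 3.65% of all 27305 windows. There were 53 matches in them, 49 before the start and 45 within 150 bases of it, and 16 genes held 2 or more. MHC class I genes held it in 9 of 19 windows (47.4%), nucleic acid sensors and adaptors in 4 of 15 (26.7%), interferon pathway genes in 5 of 26 (19.2%) and chemokines and cytokines in 5 of 28 (17.9%). Of lists not tied to interferon, mesenchymal and matrix genes held it in 3 of 21 windows (14.3%) and squamous basal genes in 2 of 26 (7.69%). No window of 35 cell cycle genes held it. TTCNNNGAA, the letters of the gamma-activated site, were in 12 of the 54 windows (22.2%) and in 7.88% of all windows. A match is a description of the letters in the window and not evidence of binding in these cells.

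Genes ranked in much the same order in the 4 groups, but far less closely than between libraries of 1 group. Over 15000 genes with a mean of at least 1 CPM (reads of a gene per 1000000 reads of the shared genes), Spearman's rho between group means was 0.892 for siNC-U and siNC-S, 0.942 for siNC-U and PBS, and 0.937 for siNC-S and PBS. The parental group stood at 0.867 to siNC-U, 0.869 to siNC-S and 0.898 to PBS. Pairs of libraries of the same group gave 0.995 to 0.998. These correlations are across genes within pairs of groups, genes are not independent replicates, and the libraries of a group share an experiment and a count table. PBS had the highest rho with each of the other 3 groups, and the untransfected line was farther from the PBS cells than either siRNA control was.

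**Figure D1:**
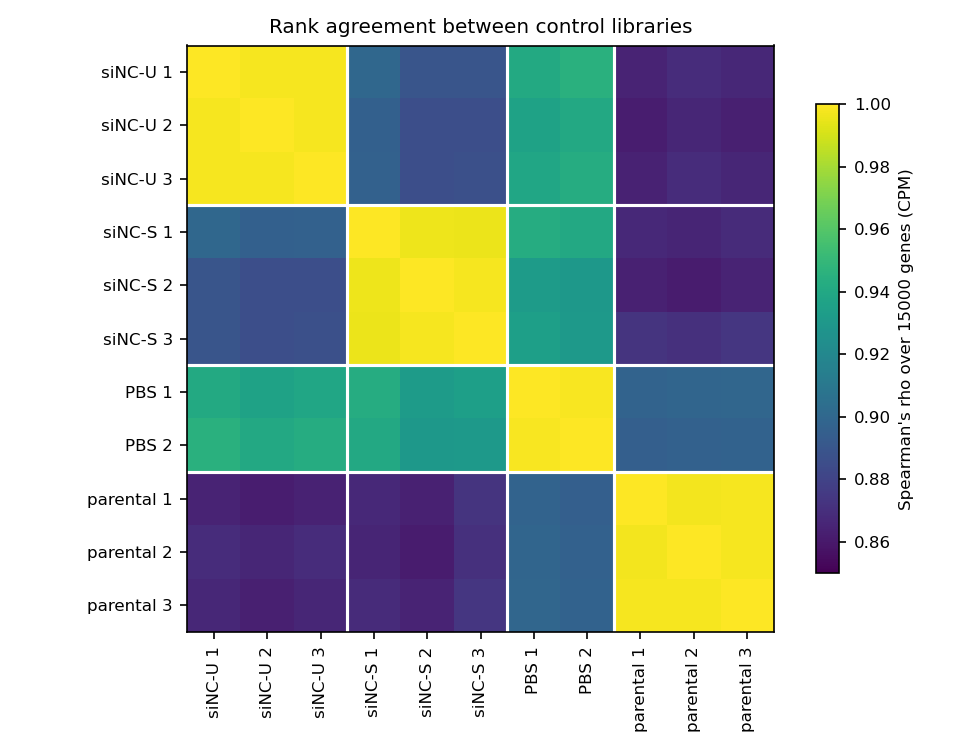
Spearman's rho between every pair of the 11 control libraries over 15000 genes ranked by CPM, drawn as colour, with siNC-U, siNC-S, PBS and parental libraries in that order on both axes. The 4 blocks on the diagonal lie at 0.995 or above, and the darkest blocks, siNC-U and siNC-S against parental, lie near 0.867 and 0.869.

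The typical gene differed between groups by several times its difference between replicates. On the log2(CPM + 1) scale the median absolute difference was 0.59 for siNC-U and siNC-S, 0.49 for siNC-U and PBS and 0.36 for siNC-S and PBS. Against the parental libraries it was 0.59 for siNC-U, 0.54 for siNC-S and 0.47 for PBS. Between libraries of 1 group it lay between 0.069 and 0.12. The share of genes more than 2-fold apart was 27.3% for siNC-U and siNC-S, 18.9% for siNC-U and PBS, 12.4% for siNC-S and PBS and 17.9% to 27.7% in the pairs with the parental group, and at most 0.32% between libraries of a group. In each table the control resembled the depleted cells of its own table more than it resembled any other control group: rho was 0.954 for siNC-U and the UHRF1 siRNA, 0.979 for siNC-S and the SMYD3 siRNA, 0.993 for PBS and the antisense oligonucleotide, and 0.921 for the parental line and the SMYD3 knockout clone. The siNC-U cells came almost as close to the antisense oligonucleotide cells, at 0.951, as to the UHRF1 siRNA cells of their own table.

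Only 3 of the 4 groups were deposited as counts that a common test can use, so the differences were fitted together with edgeR's quasi-likelihood test (two-sided, Benjamini-Hochberg adjustment over 20277 genes) on the 8 siNC-U, siNC-S and PBS libraries. Fold changes below are log2 ± standard error (SE) from that fit, a gene is called at an adjusted p under 0.05, and the parental group, deposited as a scaled signal, enters no test. In siNC-U over PBS 6638 genes (32.7%) were called higher and 6729 (33.2%) lower, 65.9% in all. In siNC-U over siNC-S the counts were 7407 higher (36.5%) and 7801 lower (38.5%), 75.0% in all, and in siNC-S over PBS 5760 higher (28.4%) and 5880 lower (29.0%), 57.4% in all. Libraries of the 2 groups did not overlap for 78.2%, 76.5% and 74.0% of genes in these pairs. Most genes are thus called in each tested pair of control groups, and the count for a gene list means something only beside these shares.

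Levels and fitted differences are on different scales. Levels are TPM (transcripts per 1000000), which divide by gene length so that genes can be compared. The fit scales each library by its trimmed mean of M-values (TMM), and its factors were 0.837 to 0.847 in siNC-U, 1.09 to 1.12 in siNC-S and 1.09 to 1.12 in PBS libraries, so a fitted difference for siNC-U lies above the ratio of its TPM values. With upper-quartile factors in place of TMM the median gene moved to -0.23 in siNC-U over PBS, against -0.03, and to -0.26 in siNC-U over siNC-S, against -0.06. The calls then became 5017 higher (24.7%) and 8599 lower (42.4%) in siNC-U over PBS. In siNC-U over siNC-S they became 5985 higher (29.5%) and 9568 lower (47.2%). In siNC-S over PBS they were 5825 higher (28.7%) and 5804 lower (28.6%).

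The most abundant transcripts of the line under interferon were a mixture of interferon-stimulated genes with ferritin, actin, thymosin and S100 transcripts. By the mean of the 4 groups 14 of the 15 leading genes were FTH1, IFI6, TMSB10, FTL, IFITM3, S100A11, GAPDH, ACTG1, ACTB, S100A10, CALR, HLA-C, ISG15 and LGALS3BP. Of these IFI6, IFITM3, ISG15 and LGALS3BP are in the interferon-stimulated list, each with the promoter match printed above, and HLA-C and CALR are in the MHC class I list. In the median library of each group the 15 highest genes held 8.19% of TPM in siNC-U, 12.1% in siNC-S, 9.32% in PBS and 10.0% in parental libraries. At least 1 TPM was reached by a median of 14664 genes in siNC-U, 15392 in siNC-S, 15368 in PBS and 15598 in parental libraries.

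IFI6, a mitochondrial protein that protects cells from death and restricts flaviviruses, had 12010.5, 13459 and 11921 TPM in siNC-U, 13267, 13588 and 13588 in siNC-S, 7732 and 7360.0 in PBS and 7404, 7820.4 and 6965 in parental libraries. The siNC-U and siNC-S libraries overlapped and all were above the PBS and parental libraries, which overlapped too. It ranked 1 in siNC-U, 2 in siNC-S, 4 in PBS and 6 in parental libraries. FTH1, the heavy chain of the iron store ferritin, had 3408, 3029 and 3204 TPM in siNC-U, 18938, 21096 and 20146 in siNC-S, 9435 and 9126 in PBS and 11051, 10546 and 10447 in parental libraries. The groups did not overlap, and siNC-U, where FTH1 ranked 22, was the only group in which it was not among the top 2. FTL, the ferritin light chain, had 4464, 4020.2 and 4120.0 TPM in siNC-U, 6604, 6479.6 and 6378 in siNC-S, 12162 and 11999.6 in PBS and 7672, 7325 and 7748 in parental libraries. It was again lowest in every siNC-U library but highest in PBS.

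TMSB10, a thymosin that binds actin monomers, stayed within ranks 3 to 5 of all 4 groups, with 5944, 5631 and 6213 TPM in siNC-U, 9386, 10806 and 11558 in siNC-S, 8101 and 8360.0 in PBS and 9149, 8986 and 9083 in parental libraries. Levels of the groups did not overlap. IFITM3, a membrane protein that blocks virus entry, had 3662, 3508 and 3416 TPM in siNC-U, 10941, 11784 and 12023 in siNC-S, 7173 and 7315 in PBS and 6597, 6977 and 6835 in parental libraries. Every siNC-U library was below every other library. S100A11 and S100A10, S100 proteins of the epithelial cytoskeleton and membrane, were also lowest in every siNC-U library. S100A11 had 2567, 2371 and 2471 TPM there, against 8611, 9620.0 and 11921 in siNC-S, 5603 and 5594 in PBS and 9591, 9461 and 9179 in parental libraries.

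GAPDH, the glycolytic enzyme often used as a reference transcript, had 3757, 3389 and 3463 TPM in siNC-U, 4655, 5099.6 and 5175 in siNC-S, 6647 and 7369 in PBS and 9388, 9279.7 and 9317 in parental libraries. Its groups did not overlap, and it was called lower in siNC-U over PBS by -0.71 ± 0.082 on the log2 scale. ACTB and ACTG1, the cytoplasmic actins, were lower in siNC-U and siNC-S than in PBS libraries too, at -0.42 ± 0.092 and -0.70 ± 0.086 in siNC-U over PBS and at -0.43 ± 0.092 and -0.47 ± 0.086 in siNC-S over PBS.

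**Figure D2:**
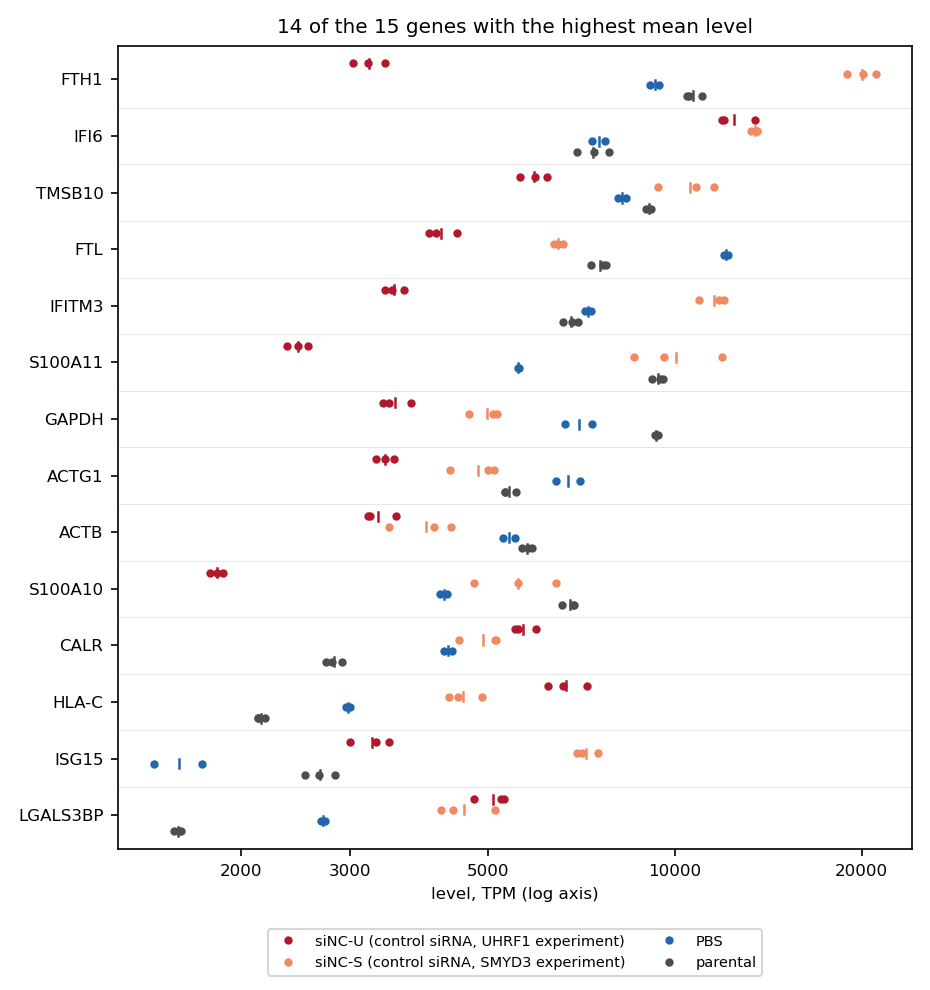
Level in TPM on a log axis of 14 of the 15 genes with the highest mean of the 4 control groups, one row a gene and one point a library, with siNC-U, siNC-S, PBS and parental libraries in separate colours. FTH1, FTL, IFITM3, S100A11 and S100A10 have their siNC-U points at the low end, while HLA-C, CALR and LGALS3BP have them at the high end.

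Of the 500 highest genes by CPM in each group, 230 were shared by all 4 groups, out of 862 that were in the top 500 of any. The pairs shared 319 for siNC-U and siNC-S, 349 for siNC-U and PBS, 365 for siNC-S and PBS, 275 for siNC-U and parental, 313 for siNC-S and parental and 348 for PBS and parental. The shared 230 held 13 interferon-stimulated genes, 8 MHC class I genes, 22 ribosomal protein genes, 6 genes of the squamous basal list, 6 of glycolysis, 4 of simple epithelium, 3 mesenchymal and matrix genes and 3 noncoding RNAs. They held no member of the chemokine, checkpoint, MHC class II or keratinocyte differentiation lists. A top-500 place that no other group shared was held by 103 genes in siNC-U, 77 in siNC-S, 32 in PBS and 113 in parental libraries.

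The labelled epithelial origin of the line was checked against its keratins and adhesion molecules, which were abundant in all 4 groups. Keratins 8 and 18, the pair of simple epithelia that carcinomas keep, were lowest in every siNC-U library. KRT8 had 1594, 1466 and 1444 TPM in siNC-U, 1737, 1842 and 1768 in siNC-S, 2259 and 2468 in PBS and 2305, 2141 and 2274 in parental libraries. KRT18 had 2049.5, 1915 and 1942 TPM in siNC-U, 2418, 2662 and 2673 in siNC-S, 4283 and 4585 in PBS and 4054, 4083 and 4176 in parental libraries. EPCAM, an epithelial adhesion molecule, had 2129, 2279 and 2244 TPM in siNC-U, 1012, 918 and 1059 in siNC-S, 1264 and 1226 in PBS and 1192, 1292 and 1215 in parental libraries, with siNC-U above and siNC-S below all other libraries. The median percentile of the 10 simple epithelial genes among the 15000 ranked genes, where 100 is the highest level, was 98.7 in siNC-U, 99.2 in siNC-S, 99.3 in PBS and 98.2 in parental libraries. Of these 10, 3 were called higher and 6 lower in siNC-U over PBS (2 and 7 with upper-quartile factors), 2 and 5 in siNC-U over siNC-S, and 4 and 4 in siNC-S over PBS.

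The squamous basal list, 44 genes of the basal layer of stratified epithelium, lay at a median percentile of 77.9 in siNC-U, 89.9 in siNC-S, 87.3 in PBS and 84.7 in parental libraries, and it split by role. All 8 hemidesmosome and basement membrane genes were called higher in siNC-U over PBS, and 7 of 8 in siNC-U over siNC-S. LAMB3, a chain of the laminin-332 of the basement membrane, had 2383, 2375 and 2206 TPM in siNC-U, 547, 452 and 371 in siNC-S, 423 and 462 in PBS and 163, 174 and 168 in parental libraries. The lowest siNC-U library was far above the highest of any other group, siNC-S and PBS libraries overlapped, and the parental libraries were lowest. The fitted difference was 2.67 ± 0.13 (adjusted p = 2.9e-11) in siNC-U over PBS, 2.62 ± 0.11 (adjusted p = 2.1e-12) in siNC-U over siNC-S and 0.05 ± 0.11, adjusted p = 0.73, in siNC-S over PBS. CDH3 (P-cadherin), a basal cell junction protein, had 1358, 1363 and 1279 TPM in siNC-U, 829, 849.6 and 791 in siNC-S, 659 and 679.7 in PBS and 263, 257 and 261 in parental libraries. Its 4 groups did not overlap.

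The transcription factors and keratins of the same list lay the other way. Of 10 transcription factors 3 were called higher and 7 lower in siNC-U over PBS, and of 7 tested keratins 2 were higher and 5 lower. TP63, the factor that sets the basal squamous identity, had 8.67, 8.26 and 8.62 TPM in siNC-U, 40.3, 34.9 and 32.9 in siNC-S, 32.9 and 30.8 in PBS and 22.9, 22.6 and 23.4 in parental libraries. The siNC-U libraries were below all others, with fitted differences of -1.62 ± 0.077 over PBS and -1.81 ± 0.071 over siNC-S. KRT5, the main type II keratin of basal cells, had 170.2, 156 and 154 TPM in siNC-U, 192, 203 and 192 in siNC-S, 361 and 376 in PBS and 361, 339 and 347 in parental libraries, and KRT14, its usual partner, stayed at or below 2.32 TPM in every library. JUP (plakoglobin), a plaque protein of desmosomes and adherens junctions, had 393, 379.7 and 375 TPM in siNC-U, 982, 1103 and 952 in siNC-S, 753 and 753 in PBS and 439, 408 and 414 in parental libraries. SFN (14-3-3σ), an epithelial cell cycle regulator, had 1436, 1351 and 1336 TPM in siNC-U, 1397, 1509 and 1360.0 in siNC-S, 2499.9 and 2552 in PBS and 1802, 1757 and 1873 in parental libraries. It was highest in PBS. Over the whole list 21 members were called higher and 21 lower of 43 in siNC-U over PBS, 19 and 20 in siNC-U over siNC-S, and 20 and 9 in siNC-S over PBS.

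Genes of suprabasal differentiation were mostly low. Of 32, only 13 passed the level needed for ranking, and their median percentile was 27.1 in siNC-U, 59.7 in siNC-S, 39.8 in PBS and 40.2 in parental libraries. KRT13, a keratin of the suprabasal oral mucosa, had 5.95, 4.92 and 5.18 TPM in siNC-U, 251, 346 and 291 in siNC-S, 124 and 109.9 in PBS and 274, 222 and 257 in parental libraries. It ranked 11378 in siNC-U, 470 in siNC-S, 1663 in PBS and 635 in parental libraries, so siNC-U was far below the other groups. The kallikreins KLK5 and KLK6, proteases of the upper epidermis, were abundant. KLK5 had 469, 471 and 440.5 TPM in siNC-U, 1111, 1234 and 1198 in siNC-S, 1872 and 1831 in PBS and 1503, 1436 and 1419 in parental libraries. KLK6 had 208, 215 and 208 TPM in siNC-U, 1002, 1166 and 1118 in siNC-S, 899 and 893 in PBS and 513, 456 and 478 in parental libraries. Both were lowest in every siNC-U library, at -1.73 ± 0.071 and -1.81 ± 0.074 in siNC-U over PBS. Of 19 tested members 5 were called higher and 10 lower in siNC-U over PBS, 3 and 11 in siNC-U over siNC-S (5 and 11 when 1 or the other PBS library was left out), and 9 and 2 in siNC-S over PBS.

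Ranked leukocyte markers lay at a median percentile of 19.3 in siNC-U, 19.7 in siNC-S, 17.8 in PBS and 27.7 in parental libraries, and the 5 ranked fibroblast markers lay at 59.8 in siNC-U, 69.1 in siNC-S, 61.4 in PBS and 45.9 in parental libraries. Of 21 leukocyte markers 7 were listed in all 4 tables, and CD2, MS4A1 and NKG7 had 0 reads in every library of the 3 count tables. PTPRC (CD45), the common leukocyte antigen, reached at most 0.162 TPM in those tables and is not listed in the parental one. The sum of the 7 was 174 to 182 TPM in siNC-U, 87.4 to 95.6 in siNC-S, 81.0 to 82.4 in PBS and 147 to 159 in parental libraries. LAPTM5, a lysosomal protein, had 139, 146 and 139 TPM in siNC-U, 49.4, 45.2 and 46.8 in siNC-S, 49.4 and 51.2 in PBS and 39.6, 40.4 and 41.9 in parental libraries. CD68, another lysosomal protein, had 2.57, 2.73 and 2.28 TPM in siNC-U, 1.24, 1.66 and 1.64 in siNC-S, 1.87 and 1.58 in PBS and 88.9, 89.2 and 92.7 in parental libraries, so that the parental table stood apart. CD68 alone made up most of the parental sum, and the part of counting in its gap was not tested.

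The other leukocyte markers above 1 CPM were CORO1A, CD14, LCP1, LYZ and CSF1R, none above 25.2 TPM in any library. Of 10 fibroblast markers 6 were listed in all tables and summed to 112 to 115 TPM in siNC-U, 172 to 205 in siNC-S, 136 to 140 in PBS and 61.3 to 64.4 in parental libraries, chiefly COL1A1, LUM and MMP2, while COL1A2, COL3A1, DCN and PDGFRA averaged at most 0.0730 TPM in each count table. COL1A1, a chain of type I collagen, had 38.7, 39.2 and 38.7 TPM in siNC-U, 40.1, 47.1 and 43.6 in siNC-S, 33.4 and 32.5 in PBS and 23.0, 21.8 and 22.8 in parental libraries. Endothelial markers summed to at most 15.8 TPM and those of other lineages to at most 10.7 TPM in any library, and PMEL was the only ranked gene of the last list. Of 9 tested leukocyte markers 4 were called higher and 3 lower in siNC-U over PBS, and of 6 fibroblast markers 2 were higher and 1 lower (2 and 2 with upper-quartile factors). Their part in the differences between groups was not tested.

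The receptors of the interferon signal lay at a median percentile of 64.5 in siNC-U, 71.7 in siNC-S, 51.8 in PBS and 58.2 in parental libraries. Its kinases and transcription factors lay at 88.8 in siNC-U, 93.2 in siNC-S, 90.2 in PBS and 86.2 in parental libraries. Over 28 tested pathway genes 18 were called higher and 6 lower in siNC-U over PBS, 7 and 16 in siNC-U over siNC-S, and 21 and 2 in siNC-S over PBS. The ligand of the treatment was itself hardly transcribed: IFNB1 did not exceed 0.660 TPM in any library of the 3 count tables, and IFNL1, a type III interferon, did not exceed 3.81 TPM in any library. IFNAR1, a chain of the type I receptor, had 43.3, 42.4 and 46.7 TPM in siNC-U, 45.8, 40.1 and 37.4 in siNC-S, 27.8 and 27.1 in PBS and 19.4, 19.8 and 20.6 in parental libraries. The siNC-U and siNC-S libraries overlapped and were above PBS, and the parental libraries were lowest. IFNGR1, a chain of the type II interferon receptor, had 215, 219 and 225 TPM in siNC-U, 139, 132 and 139 in siNC-S, 57.6 and 55.4 in PBS and 39.0, 38.9 and 39.8 in parental libraries. The groups did not overlap. JAK1 had 122, 119.8 and 124 TPM in siNC-U, 178, 167 and 167 in siNC-S, 133 and 134 in PBS and 73.3, 70.4 and 75.7 in parental libraries. TYK2 had 49.4, 53.8 and 50.2 TPM in siNC-U, 61.5, 61.0 and 58.0 in siNC-S, 46.5 and 45.7 in PBS and 48.1, 47.2 and 46.9 in parental libraries.

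STAT2 had 319, 363 and 330.2 TPM in siNC-U, 564, 607 and 593 in siNC-S, 212 and 209 in PBS and 126, 148 and 134 in parental libraries, in 4 groups that did not overlap, at 0.96 ± 0.077 (adjusted p = 9.5e-11) in siNC-U over PBS, -0.53 ± 0.066 (adjusted p = 1.1e-07) in siNC-U over siNC-S and 1.49 ± 0.078 (adjusted p = 5.6e-14) in siNC-S over PBS. IRF7, a factor that amplifies interferon production, had 564, 594 and 557 TPM in siNC-U, 993, 1049 and 944 in siNC-S, 214 and 218 in PBS and 231, 252 and 233 in parental libraries, with PBS the lowest and not the parental line. IRF1, a factor induced by both interferon types, had 45.3, 44.2 and 41.3 TPM in siNC-U, 134, 138 and 126 in siNC-S, 73.9 and 67.7 in PBS and 45.9, 48.0 and 50.5 in parental libraries, where siNC-U was lowest. USP18, the protease that removes ISG15 from proteins and dampens the type I receptor, had 390.1, 386 and 353 TPM in siNC-U, 245, 258 and 217 in siNC-S, 110.1 and 114 in PBS and 119, 163 and 134 in parental libraries, and here siNC-U was highest. SOCS1 and SOCS3, inhibitors of the kinases, were called higher in siNC-U over PBS by 1.82 ± 0.17 and 0.41 ± 0.079. IRF9 and IFNAR2 overlap another gene on their strand, so their levels are uncertain. IRF9 had 27.0, 32.0 and 31.8 TPM in siNC-U, 23.6, 26.2 and 30.3 in siNC-S, 44.1 and 41.9 in PBS and 263, 269.6 and 261 in parental libraries. IFNAR2 had 16.6, 17.6 and 17.9 TPM in siNC-U, 35.9, 34.6 and 36.5 in siNC-S, 14.2 and 11.3 in PBS and 26.0, 27.2 and 25.4 in parental libraries.

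All 68 genes of the interferon-stimulated list were listed in the 4 tables and ranked, and most sat at the top of the transcriptome. Their median percentile was 94.0 in siNC-U, 96.9 in siNC-S, 90.1 in PBS and 85.7 in parental libraries. Among the highest 25% of all ranked genes were 61 members in siNC-U, 65 in siNC-S, 57 in PBS and 53 in parental libraries. Together they held 4.31% to 4.62% of TPM in siNC-U, 6.72% to 7.04% in siNC-S, 3.37% to 3.42% in PBS and 2.74% to 3.08% in parental libraries. The groups did not overlap, and siNC-S was highest.

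The mean of a member was highest in siNC-S for 55 of 68, against 31.2% of all ranked genes, in siNC-U for 12 (22.4% of all) and in PBS for 1 (24.3% of all). It was lowest in the parental group for 55 (35.3% of all), in PBS for 8 (10.1% of all) and in siNC-U for 5 (35.3% of all). Every siNC-S library was above every other control library for 49 members (22.6% of all), and every parental library was below every other for 49 (26.9% of all). The highest group mean was a median of 3.40 times the lowest, against 2.23 times over all ranked genes, and 24 members (35.3%) stayed under 3-fold, against 67.5% of all ranked genes. In siNC-S over PBS 65 of 68 members were called higher and 1 lower (median 1.05 log2, against 0.01 for all genes tested). In siNC-U over PBS 57 were higher and 8 lower (median 0.89, against -0.03). In siNC-U over siNC-S 16 were higher and 38 lower (10 and 50 with upper-quartile factors; median -0.30, against -0.06).

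Among the IFIT and IFI genes, whose products bind viral RNA or act in mitochondria and the nucleus, 9 of 13 were called higher and 4 lower in siNC-U over PBS, and 1 higher and 11 lower in siNC-U over siNC-S. IFIT1, which binds uncapped RNA, had 819, 792 and 820.3 TPM in siNC-U, 1611, 1734 and 1813 in siNC-S, 445 and 448 in PBS and 430.0, 577 and 509 in parental libraries. Every siNC-S library was above every siNC-U library, those were above all others, and the PBS and parental libraries overlapped. IFI27, a mitochondrial and nuclear envelope protein used as a blood marker of interferon exposure, had 626, 628 and 603 TPM in siNC-U, 1634, 1704 and 1768 in siNC-S, 832 and 857 in PBS and 530.1, 641 and 585 in parental libraries. The siNC-U and parental libraries overlapped and were below both other groups. Its fitted difference was 1.02 ± 0.075 (adjusted p = 2.7e-11) in siNC-S over PBS. In siNC-U over PBS it was -0.17 ± 0.072 (adjusted p = 0.04), a call that was lost when any 1 of the 5 libraries was left out, with adjusted p between 0.0624 and 0.251.

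ISG15, a ubiquitin-like protein joined to other proteins under interferon, had 3458, 3295 and 2994 TPM in siNC-U, 6951, 7535 and 7099.8 in siNC-S, 1449 and 1728 in PBS and 2539.8, 2835 and 2671 in parental libraries. Here PBS and not the parental line was lowest, and the groups did not overlap. The differences were 1.31 ± 0.089 (adjusted p = 6.7e-12) in siNC-U over PBS, -0.88 ± 0.077 (adjusted p = 2.8e-10) in siNC-U over siNC-S and 2.19 ± 0.093 (adjusted p = 1.6e-15) in siNC-S over PBS. All 5 genes of the ISG15 system were called higher in siNC-S over PBS. MX1, a GTPase that traps viral ribonucleoproteins, had 769.6, 744 and 719 TPM in siNC-U, 863, 902 and 828 in siNC-S, 299 and 323 in PBS and 145, 190.4 and 165 in parental libraries. The TPM of every siNC-S library exceeded that of every siNC-U library, yet the fitted difference of siNC-U over siNC-S was 0.05 ± 0.067, adjusted p = 0.49 (-0.15, adjusted p = 0.038, with upper-quartile factors). All 5 OAS and RNase L genes, which sense double-stranded RNA and degrade RNA, were called higher in siNC-S over PBS, and 4 of 5 in siNC-U over PBS.

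RSAD2 (viperin), which makes a chain-terminating nucleotide, and CMPK2, its neighbour on chromosome 2 that makes the substrate, spread widest among the named antiviral genes. RSAD2 had 339, 384 and 342 TPM in siNC-U, 304, 334 and 298 in siNC-S, 24.5 and 26.3 in PBS and 11.6, 18.9 and 15.2 in parental libraries. The siNC-U libraries were highest, the siNC-S libraries close below, and the PBS and parental libraries more than 10 times lower than either. The fitted difference was 4.08 ± 0.095 (adjusted p = 3.1e-20) in siNC-U over PBS and 3.63 ± 0.093 (adjusted p = 6.8e-20) in siNC-S over PBS. CMPK2 had 193, 188 and 188 TPM in siNC-U, 224, 199 and 172 in siNC-S, 42.7 and 45.4 in PBS and 10.2, 19.6 and 13.3 in parental libraries, with siNC-U and siNC-S overlapping. LGALS3BP, a secreted glycoprotein with a role in tumour immunity, had 5242, 5300.5 and 4743 TPM in siNC-U, 4199.7, 5123 and 4397 in siNC-S, 2692 and 2736 in PBS and 1589.8, 1559 and 1599 in parental libraries, also with siNC-U and siNC-S overlapping and the parental line lowest.

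**Figure D3:**
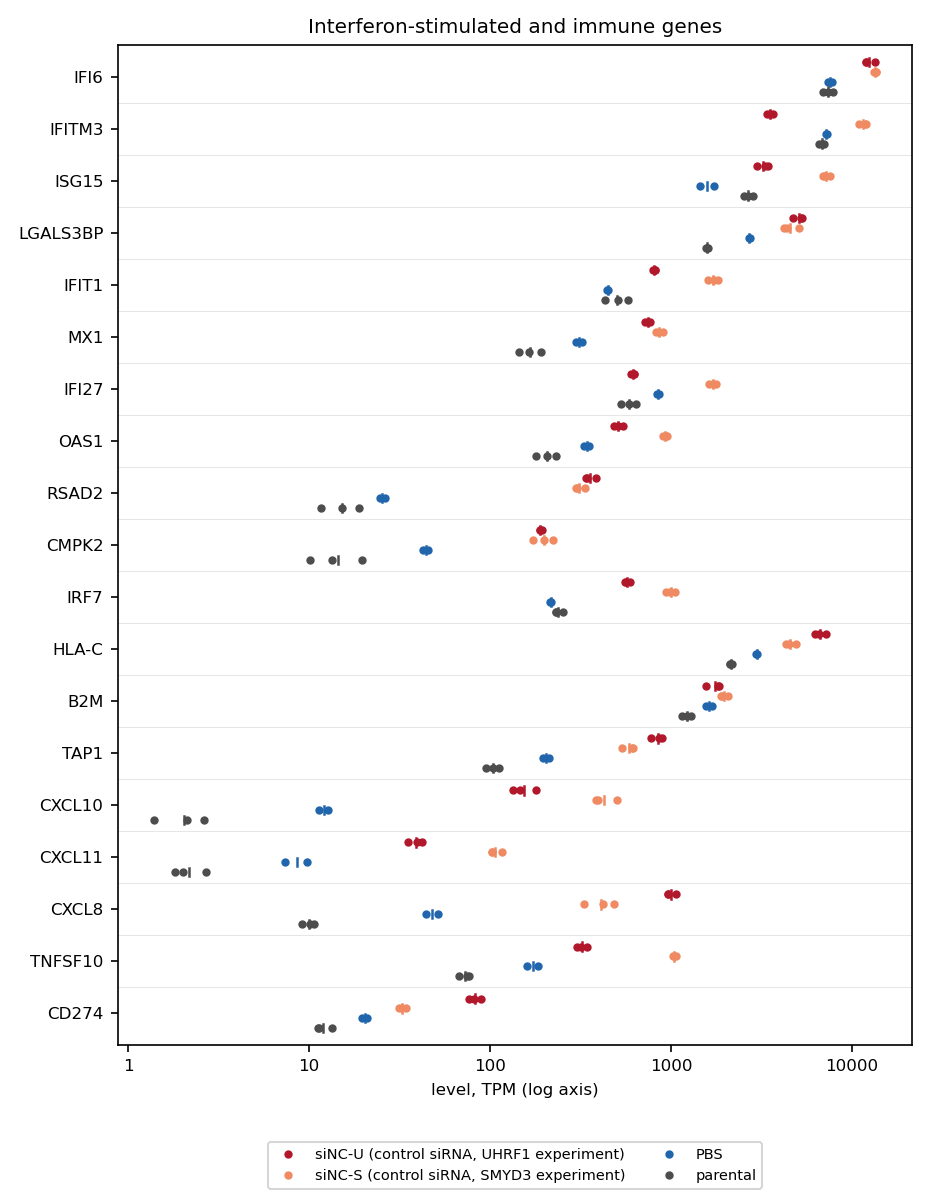
Level in TPM on a log axis of 19 interferon-stimulated, MHC class I, chemokine and checkpoint genes, one row a gene and one point a library, coloured by control group. For most genes the siNC-S points are rightmost and the parental points leftmost. IFITM3 and IFI27 have low siNC-U points, and CXCL10, CXCL8 and CXCL11 spread furthest.

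Most sensors of foreign nucleic acid were higher in both siRNA controls than in PBS. All 12 tested sensors and 6 of 7 adaptors and kinases were called higher in siNC-U over PBS, and 9 and 6 were in siNC-S over PBS. Over the 19 tested genes the count in siNC-U over siNC-S was 8 higher and 6 lower, and 7 and 9 with upper-quartile factors. RIGI, the sensor of short triphosphate RNA, had 268, 272 and 276 TPM in siNC-U, 349.6, 348 and 324 in siNC-S, 125 and 130.5 in PBS and 57.7, 72.0 and 69.0 in parental libraries. IFIH1 (MDA5), the sensor of long double-stranded RNA, had 138, 146 and 139 TPM in siNC-U, 263, 262 and 257 in siNC-S, 75.9 and 72.5 in PBS and 38.7, 54.3 and 51.0 in parental libraries. Both ran in the same order, siNC-S, siNC-U, PBS and parental, with no overlap. DHX58 (LGP2), which tunes MDA5, varied least of the 3, with 105, 115 and 109 TPM in siNC-U, 160.2, 161 and 151 in siNC-S, 92.6 and 93.6 in PBS and 73.5, 92.4 and 87.2 in parental libraries. MYD88, the adaptor of Toll-like receptors, had 131, 131 and 121 TPM in siNC-U, 273, 318 and 311 in siNC-S, 106 and 109 in PBS and 89.1, 96.5 and 93.1 in parental libraries.

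MHC class I genes were among the highest of the transcriptome in every group. Their median percentile was 97.7 in siNC-U, 98.2 in siNC-S, 97.4 in PBS and 96.4 in parental libraries, and they held 3.02% to 3.28%, 2.70% to 2.91%, 1.95% to 2.00% and 1.37% to 1.40% of TPM in those groups in turn. HLA-C had 6608, 7212 and 6240.1 TPM in siNC-U, 4469.6, 4889 and 4327 in siNC-S, 2951 and 2995 in PBS and 2189, 2128 and 2134 in parental libraries. It was lowest in the parental line, next lowest in PBS and highest in siNC-U. HLA-B and HLA-C overlap other genes on their strand, and reads of the heavy chains can be shared between them, so their levels are uncertain. B2M, the common light chain, varied least of the class I genes named here, with 1561, 1830.3 and 1846 TPM in siNC-U, 1885, 1924 and 2065 in siNC-S, 1678 and 1562 in PBS and 1151, 1294 and 1226 in parental libraries.

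Peptide transport and loading come before the assembly of class I molecules. All 9 transport and loading genes were called higher in siNC-U over PBS, with a median of 1.86 log2, against 1 of 8 proteasome genes higher and 3 lower. TAP1, a subunit of the peptide transporter, had 861, 895 and 777 TPM in siNC-U, 610.5, 616 and 533 in siNC-S, 196 and 212 in PBS and 95.4, 112 and 104 in parental libraries, with no overlap between groups, at 2.33 ± 0.089 (adjusted p = 1.3e-16) in siNC-U over PBS and 1.53 ± 0.086 (adjusted p = 1.8e-13) in siNC-S over PBS. CALR (calreticulin), the chaperone of new heavy chains, had 5590.2, 5975 and 5519.7 TPM in siNC-U, 4484, 5123 and 5146 in siNC-S, 4371 and 4242 in PBS and 2805, 2742 and 2911 in parental libraries. Over all 24 class I genes 17 were higher and 3 lower in siNC-U over PBS, 13 and 5 in siNC-U over siNC-S (11 and 9 with upper-quartile factors), and 15 and 5 in siNC-S over PBS.

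MHC class II genes were low, as in most cells outside the immune system, save for the invariant chain. CD74, that chain, had 237, 265 and 245 TPM in siNC-U, 494, 583 and 537 in siNC-S, 209 and 205 in PBS and 150.1, 144 and 146 in parental libraries. HLA-DRA had 7.99, 7.87 and 8.53 TPM in siNC-U, 11.9, 12.1 and 12.4 in siNC-S, 6.95 and 5.48 in PBS and 5.40, 6.32 and 3.90 in parental libraries. HLA-DRB1 had 7.97, 6.56 and 5.18 TPM in siNC-U, 13.8, 12.8 and 13.5 in siNC-S, 5.39 and 3.09 in PBS and 1.63, 3.77 and 2.83 in parental libraries, so the siNC-S libraries were highest for all 3. All 9 tested class II genes were called higher in siNC-S over PBS and 7 in siNC-U over PBS, with 1 lower. In siNC-U over siNC-S none was higher and 5 were lower.

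Chemokines and cytokines had the widest gap between control groups of the immune lists. Their median percentile was 71.8 in siNC-U, 60.5 in siNC-S, 45.1 in PBS and 17.6 in parental libraries, and their summed level was 3450 to 3706 TPM in siNC-U, 3077 to 3443 in siNC-S, 890 to 933 in PBS and 352 to 376 in parental libraries. Of 31 tested members 25 were called higher and 5 lower in siNC-U over PBS (median 1.72 log2; 22 and 3 without PBS replicate 2), 17 and 11 in siNC-U over siNC-S, and 18 and 8 in siNC-S over PBS. Receptor families divided the 2 siRNA controls. The CXCR3 ligands CXCL10 and CXCL11, which attract T cells and natural killer cells, were higher in siNC-S, and the CXCR2 ligands, which attract neutrophils, were higher in siNC-U.

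CXCL10, a CXCR3 ligand, had 146, 179.9 and 134 TPM in siNC-U, 503, 397 and 385 in siNC-S, 12.7 and 11.4 in PBS and 1.39, 2.63 and 2.12 in parental libraries. No groups overlapped, and the highest mean was 209 times the lowest. The fitted difference was 3.95 ± 0.20 (adjusted p = 2.3e-08) in siNC-U over PBS, -1.21 ± 0.12 (adjusted p = 5.3e-06) in siNC-U over siNC-S and 5.16 ± 0.20 (adjusted p = 3.4e-09) in siNC-S over PBS. CXCL11 had 35.3, 42.2 and 39.4 TPM in siNC-U, 116, 102 and 102 in siNC-S, 7.37 and 9.75 in PBS and 1.81, 2.70 and 2.02 in parental libraries, in the same order. CXCL9, the third of these ligands, stayed below 1 TPM in the 3 count tables and is not listed in the parental one. CXCL8, a CXCR2 ligand, had 967, 958 and 1066 TPM in siNC-U, 486, 329.7 and 419.9 in siNC-S, 51.6 and 44.0 in PBS and 10.1, 10.7 and 9.16 in parental libraries. It ranked 103 in siNC-U, 295 in siNC-S, 4250 in PBS and 10085 in parental libraries. CXCL1, another, had 471, 482 and 506 TPM in siNC-U, 262, 185 and 200.5 in siNC-S, 14.9 and 15.3 in PBS and 4.77, 7.45 and 7.48 in parental libraries, and its difference of 5.29 ± 0.14 (adjusted p = 1.1e-15) in siNC-U over PBS was the largest rise of that pair among well-expressed genes. All 5 tested CXCR2 ligands were called higher in siNC-U over PBS and in siNC-U over siNC-S.

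TNFSF10 (TRAIL), a death ligand induced by interferon, had 303, 345 and 319 TPM in siNC-U, 1036, 1068 and 1022 in siNC-S, 185 and 159.5 in PBS and 67.7, 75.0 and 76.4 in parental libraries. Every siNC-S library was far above all others. CXCL16, a membrane-bound chemokine, had 189, 196 and 183 TPM in siNC-U, 320.2, 352 and 323 in siNC-S, 176 and 183 in PBS and 66.5, 65.7 and 66.1 in parental libraries. CSF2 (GM-CSF), a growth factor for myeloid cells, had 395, 451 and 445 TPM in siNC-U, 7.70, 5.44 and 4.39 in siNC-S, 38.8 and 43.2 in PBS and 2.77, 3.92 and 3.16 in parental libraries. IL6 had 80.2, 100.3 and 91.2 TPM in siNC-U, 17.0, 10.5 and 14.6 in siNC-S, 26.1 and 24.0 in PBS and 6.32, 8.03 and 8.71 in parental libraries. For both the siNC-U libraries were highest and the parental libraries lowest, and PBS stood above siNC-S. In siNC-U over siNC-S the fitted difference was 6.48 ± 0.12 for CSF2 and 2.94 ± 0.12 for IL6.

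Of 13 tested immune checkpoint ligands 9 were called higher and 2 lower in siNC-U over PBS, 7 and 4 in siNC-U over siNC-S, and 8 and 3 in siNC-S over PBS. CD274 (PD-L1), the ligand of PD-1 on T cells, had 76.7, 89.1 and 81.5 TPM in siNC-U, 32.4, 31.5 and 34.3 in siNC-S, 19.5 and 20.9 in PBS and 11.1, 13.3 and 11.4 in parental libraries. The groups did not overlap, and siNC-U stood 2.30 ± 0.085 (adjusted p = 7.1e-17) over PBS and 1.60 ± 0.069 (adjusted p = 3.1e-16) over siNC-S on the log2 scale. NT5E (CD73), an enzyme that makes adenosine, spread far wider, with 1113, 1185 and 1171 TPM in siNC-U, 87.5, 77.6 and 70.8 in siNC-S, 122 and 142 in PBS and 29.3, 37.6 and 31.4 in parental libraries. The lowest siNC-U library was several times the highest of any other group. CD276 (B7-H3) had 177 ± 3.01 TPM in siNC-U, 111 ± 8.09 in siNC-S, 137 ± 3.68 in PBS and 47.9 ± 1.55 in parental libraries, CD47, the signal that stops phagocytosis, had 202 ± 9.08 TPM in siNC-U, 166 ± 12.7 in siNC-S, 95.7 ± 4.10 in PBS and 73.8 ± 3.31 in parental libraries and NECTIN2, a ligand of TIGIT, had 784 ± 28.1 TPM in siNC-U, 405 ± 26.3 in siNC-S, 304 ± 3.64 in PBS and 147 ± 6.48 in parental libraries (mean ± SD, n = 3, 3, 2 and 3).

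**Figure D4:**
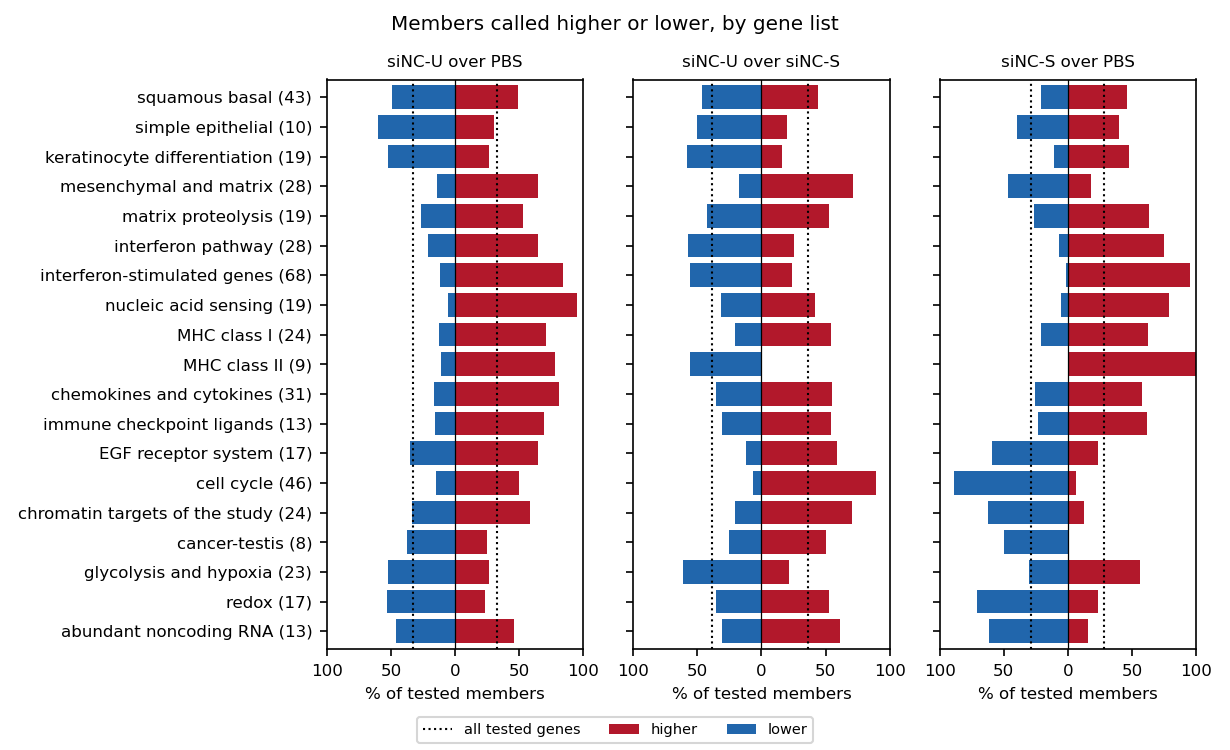
Percent of tested members called higher (right, red) and lower (left, blue) in siNC-U over PBS, siNC-U over siNC-S and siNC-S over PBS for each gene list, with the number tested in brackets and the share of all 20277 genes as dotted lines. Interferon-stimulated genes reach 57 of 68 and 65 of 68 higher over PBS, and cell cycle genes reach 41 of 46 higher in siNC-U over siNC-S and 41 of 46 lower in siNC-S over PBS.

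Cell cycle genes set the siNC-S cells apart from the 3 other groups. Their median percentile was 90.5 in siNC-U, 56.5 in siNC-S, 90.0 in PBS and 87.1 in parental libraries. They held 0.837% of TPM at the median library in siNC-U, 0.272% in siNC-S, 0.817% in PBS and 0.723% in parental libraries. In siNC-S over PBS 3 of 46 were called higher and 41 lower (median -2.04 log2), with all 14 replication genes and all 15 mitosis genes lower. In siNC-U over siNC-S 41 were higher and 3 lower. In siNC-U over PBS 23 were higher and 7 lower, but 13 and 14 with upper-quartile factors 12 and 3 without PBS replicate 1, and 16 and 4 without PBS replicate 2.

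MKI67, the proliferation antigen Ki-67, had 213, 239 and 262 TPM in siNC-U, 36.9, 23.7 and 21.8 in siNC-S, 144 and 160.3 in PBS and 132, 135 and 142 in parental libraries. The siNC-S libraries were far below all others, and the groups did not overlap. The difference was -2.47 ± 0.23 (adjusted p = 0.00015) in siNC-S over PBS and 3.39 ± 0.22 (adjusted p = 1.4e-05) in siNC-U over siNC-S. TOP2A, the topoisomerase of mitotic chromosomes, had 355, 351 and 379.5 TPM in siNC-U, 82.9, 52.1 and 52.3 in siNC-S, 416 and 429 in PBS and 389, 404 and 408 in parental libraries. CDC20, an activator of the anaphase-promoting complex, had 426, 386 and 404 TPM in siNC-U, 106, 67.8 and 63.3 in siNC-S, 500.3 and 531 in PBS and 585, 533 and 556 in parental libraries. PCNA, the replication clamp, had 709, 712 and 780.2 TPM in siNC-U, 323, 284 and 325 in siNC-S, 739.9 and 802 in PBS and 1066, 1205 and 1160.0 in parental libraries. It was highest in the parental line and lowest in siNC-S. CCND1 (cyclin D1), which drives entry to the cycle, had 1661, 1489 and 1578 TPM in siNC-U, 655, 628 and 575 in siNC-S, 998 and 1055 in PBS and 493, 488 and 479 in parental libraries, with siNC-U highest and the parental line lowest.

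UHRF1, the protein depleted in the experiment that siNC-U serves, was also lowest in siNC-S. It had 60.0, 56.5 and 58.3 TPM in siNC-U, 10.5, 7.69 and 8.95 in siNC-S, 37.5 and 38.6 in PBS and 119, 120.2 and 119 in parental libraries, with no overlap between groups and a 13.2-fold range of means. It was called lower in siNC-S over PBS by -2.06 ± 0.086 (adjusted p = 7.6e-16). SMYD3, the lysine methyltransferase depleted in the other 3 experiments, ranged only 1.96-fold, with 9.75, 10.7 and 9.19 TPM in siNC-U, 13.6, 10.5 and 12.5 in siNC-S, 16.2 and 15.3 in PBS and 8.45, 7.71 and 7.86 in parental libraries. DNMT1, the maintenance methyltransferase that UHRF1 guides, had 86.3, 88.1 and 91.0 TPM in siNC-U, 53.4, 45.2 and 42.3 in siNC-S, 79.0 and 89.7 in PBS and 63.7, 62.2 and 62.2 in parental libraries, and it overlaps another gene on its strand. EZH2, the H3K27 methyltransferase, had 102, 116 and 119.6 TPM in siNC-U, 36.8, 35.0 and 37.1 in siNC-S, 76.6 and 80.7 in PBS and 99.3, 112 and 108 in parental libraries. It was lowest in every siNC-S library. TRIM28, a corepressor of retroelements, had 491, 481 and 469 TPM in siNC-U, 333, 339 and 306 in siNC-S, 440.1 and 472 in PBS and 493, 476 and 459 in parental libraries. Of 24 tested chromatin genes 14 were called higher and 8 lower in siNC-U over PBS (9 and 8 with upper-quartile factors), 17 and 5 in siNC-U over siNC-S (14 and 7), and 3 and 15 in siNC-S over PBS.

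Several growth factor receptors and matrix genes were highest in siNC-U. EGFR, the receptor amplified or overexpressed in many squamous carcinomas, had 5584, 5813 and 5979 TPM in siNC-U, 1271, 1070.1 and 1013 in siNC-S, 1433 and 1603 in PBS and 1044, 1103 and 1065 in parental libraries. The lowest siNC-U library was several times the highest of any other group, and EGFR ranked 6 in siNC-U, 79 in siNC-S, 60 in PBS and 110 in parental libraries. The difference was 2.21 ± 0.10 (adjusted p = 2.5e-15) in siNC-U over PBS and 2.64 ± 0.087 (adjusted p = 1.6e-18) in siNC-U over siNC-S. MET, the receptor of hepatocyte growth factor, had 657, 670.2 and 650.3 TPM in siNC-U, 77.3, 62.1 and 59.1 in siNC-S, 130.2 and 140.2 in PBS and 73.6, 79.8 and 73.4 in parental libraries. AXL, a receptor tied to mesenchymal traits, had 1369, 1306 and 1315 TPM in siNC-U, 159, 119 and 105 in siNC-S, 410.5 and 462 in PBS and 204, 214 and 199 in parental libraries. AREG (amphiregulin), an EGFR ligand, had 234, 286 and 267 TPM in siNC-U, 50.7, 48.1 and 56.8 in siNC-S, 224 and 227 in PBS and 28.3, 24.6 and 20.3 in parental libraries, nearly as high in PBS as in siNC-U. Of 17 tested genes of the EGF receptor list 11 were called higher and 6 lower in siNC-U over PBS, 10 and 2 in siNC-U over siNC-S (10 and 6 with upper-quartile factors), and 4 and 10 in siNC-S over PBS.

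PLAU (urokinase), the protease that activates plasmin, had 5835, 6201 and 5844 TPM in siNC-U, 1023, 965 and 1009 in siNC-S, 1123 and 1108 in PBS and 440.0, 438 and 441 in parental libraries, rank 4 in siNC-U and no higher than 83 elsewhere. THBS1 (thrombospondin-1) had 2155, 2251 and 2054 TPM in siNC-U, 124, 101 and 91.4 in siNC-S, 408 and 458 in PBS and 169.8, 180.5 and 170.2 in parental libraries, with siNC-S the lowest. CCN1, a matricellular protein, had 4507, 5019 and 4695 TPM in siNC-U, 964, 1227 and 1372 in siNC-S, 1727 and 1778 in PBS and 865, 945 and 854 in parental libraries. SPARC, another, had 1209, 1281 and 1204 TPM in siNC-U, 706, 711 and 711 in siNC-S, 819.7 and 813 in PBS and 298, 295 and 300.4 in parental libraries. VIM (vimentin), the mesenchymal filament, had 234, 222 and 235 TPM in siNC-U, 25.8, 16.9 and 19.2 in siNC-S, 119 and 139 in PBS and 172, 183 and 163 in parental libraries. It was lowest in every siNC-S library. CDH2 (N-cadherin) had 221, 231 and 221 TPM in siNC-U, 19.2, 14.3 and 13.0 in siNC-S, 28.7 and 33.6 in PBS and 9.41, 11.6 and 10.4 in parental libraries. Every siNC-U library was far above all others.

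Over the mesenchymal and matrix list 18 of 28 tested genes were called higher and 4 lower in siNC-U over PBS (median 1.27 log2), 20 and 5 in siNC-U over siNC-S (median 1.39), and 5 and 13 in siNC-S over PBS (3 and 13 without siNC-S replicate 3). Most were matrix genes, of which 12 of 16 were higher in siNC-U over PBS, while the 6 tested transcription factors of the list had 2 higher and 1 lower. The proteolysis list gave 10 higher and 5 lower of 19 in siNC-U over PBS (9 and 9 with upper-quartile factors), 10 and 8 in siNC-U over siNC-S (10 and 9 with upper-quartile factors), and 12 and 5 in siNC-S over PBS. Among its inhibitors TIMP1 was called in no pair and had 269, 284 and 284 TPM in siNC-U, 339.6, 357 and 378 in siNC-S, 361 and 331 in PBS and 440.3, 433 and 432 in parental libraries.

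Secreted and surface proteins are folded in the endoplasmic reticulum, and 3 of its chaperones were high in the same libraries. HSP90B1 (GRP94) had 6273, 6189 and 6121 TPM in siNC-U, 2321, 2211 and 2278 in siNC-S, 3435 and 3326 in PBS and 1555, 1648 and 1674 in parental libraries, rank 3 in siNC-U. HSPA5 (BiP) had 4444, 4348 and 4103 TPM in siNC-U, 2003, 2084 and 2191 in siNC-S, 1684 and 1689.9 in PBS and 950.2, 1021 and 998 in parental libraries. P4HB, a disulfide isomerase, had 3036, 3035 and 2833 TPM in siNC-U, 1431, 1478 and 1379 in siNC-S, 1505 and 1609 in PBS and 829, 806 and 827 in parental libraries. For all 3 the siNC-U libraries were above all others and the parental libraries below, and siNC-U over PBS differed by 1.15 ± 0.078, 1.63 ± 0.082 and 1.21 ± 0.080.

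Of the 5 largest falls in siNC-U over PBS 4 were immediate-early genes, factors that growth factors or stress induce within minutes. FOS had 14.7, 14.3 and 15.3 TPM in siNC-U, 1821, 1958 and 2055 in siNC-S, 4269 and 3990.4 in PBS and 2087, 2076 and 1989 in parental libraries. The siNC-U libraries lay far below all others, and siNC-S and parental libraries overlapped. The difference was -7.85 ± 0.095 (adjusted p = 5.8e-26) in siNC-U over PBS, and FOS ranked 8529 in siNC-U, 33 in siNC-S, 13 in PBS and 40 in parental libraries. FOSB had 2.11, 1.97 and 2.14 TPM in siNC-U, 297, 372 and 424 in siNC-S, 939 and 907 in PBS and 117, 115 and 103 in parental libraries. EGR1, an immediate-early gene outside those 5, had 47.9, 43.6 and 43.5 TPM in siNC-U, 684, 762 and 727 in siNC-S, 1168 and 1168 in PBS and 421, 409.6 and 424 in parental libraries. PBS was highest and siNC-U lowest for all 3, and the siNC-S libraries differed from PBS by -1.08 ± 0.074 for FOS, -1.33 ± 0.12 for FOSB and -0.68 ± 0.071 for EGR1. EGR2 and EGR3, also among the 5 largest falls, and PTGIS, a prostacyclin synthase, lay under 1 TPM in siNC-U. EGR2 did not share the order of the other groups. Its mean was highest in siNC-S, at 95.1 TPM against 33.0 in PBS and 2.75 in parental libraries. EGR3 had means of 15.8 TPM in siNC-S, 17.9 in PBS and 0.32 in parental libraries, where it was near the floor as in siNC-U. The largest rises of that pair were CXCL1, ADAMTS9 (5.28 ± 0.14), PTX3 (4.92 ± 0.18), CXCL8 (4.66 ± 0.15) and SEMA7A (4.44 ± 0.10). SEMA7A, a membrane semaphorin that acts through integrins, had 1712, 1784 and 1612 TPM in siNC-U, 139.7, 168 and 144 in siNC-S, 90.8 and 99.5 in PBS and 34.9, 37.8 and 30.7 in parental libraries.

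**Figure D5:**
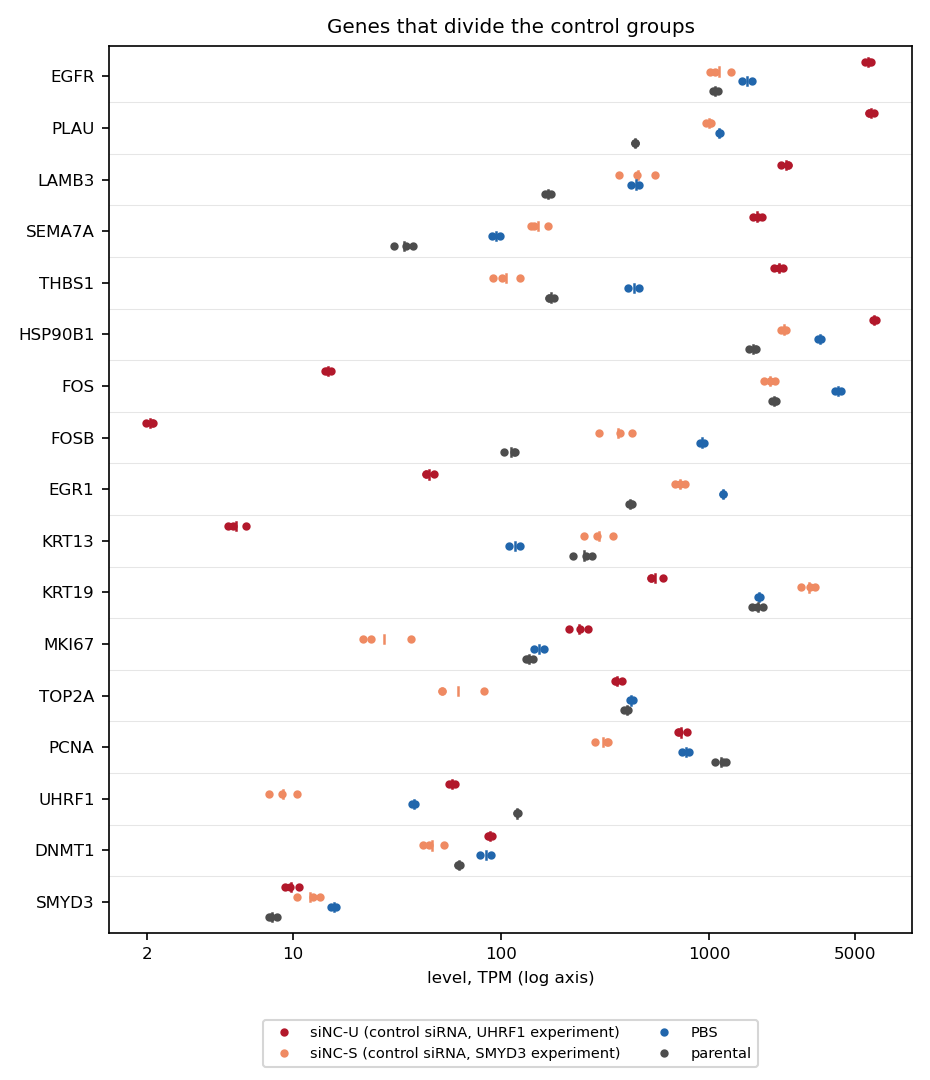
Level in TPM on a log axis of 17 genes that lie apart in 1 or more control groups, one row a gene and one point a library, coloured by control group. EGFR, PLAU, LAMB3, SEMA7A and THBS1 have siNC-U points far right, FOS, FOSB, EGR1 and KRT13 have them far left, and MKI67, TOP2A and UHRF1 have siNC-S points far left.

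The lists of metabolism and stress held calls in both directions, as all tested genes did. Of all tested genes 32.7% were called higher and 33.2% lower in siNC-U over PBS. The shares were 36.5% and 38.5% in siNC-U over siNC-S, and 28.4% and 29.0% in siNC-S over PBS. Of 23 glycolysis and hypoxia genes 6 were called higher and 12 lower in siNC-U over PBS, 5 and 14 in siNC-U over siNC-S, and 13 and 7 in siNC-S over PBS. TPI1 had 889, 807 and 827 TPM in siNC-U, 1182, 1221 and 1144 in siNC-S, 1401 and 1447 in PBS and 1003, 989 and 996 in parental libraries. ENO1 had 1441, 1294 and 1283 TPM in siNC-U, 1318, 1314 and 1249.7 in siNC-S, 1824 and 1992 in PBS and 1123, 1100.5 and 1123 in parental libraries. PKM had 945, 868 and 880.3 TPM in siNC-U, 1271, 1271 and 1151 in siNC-S, 1598 and 1777 in PBS and 1056, 1022 and 1026 in parental libraries. TPI1, ENO1 and PKM were each highest in PBS. GAPDH, described above, was highest in the parental line. So was the summed level of the 14 glycolysis genes, at 15682 TPM against 14070 in PBS. That sum largely restates GAPDH, which alone gave 9328 TPM of it in parental and 7008 in PBS libraries. Of 17 targets of NRF2, the factor that answers oxidative stress, 4 were higher and 9 lower in siNC-U over PBS, and 4 and 12 in siNC-S over PBS. NQO1, a quinone reductase, had 379.5, 325 and 353 TPM in siNC-U, 605, 624 and 648 in siNC-S, 887 and 870.4 in PBS and 940.3, 962 and 971 in parental libraries. It was lowest in every siNC-U library. TXN (thioredoxin) had 1931, 2124 and 2343 TPM in siNC-U, 1476, 1451 and 1721 in siNC-S, 3004 and 2935 in PBS and 4965, 5206 and 4869.9 in parental libraries. It was highest in the parental line.

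CDKN1A (p21), an inhibitor that halts the cell cycle, had 286 ± 9.75 TPM in siNC-U, 285 ± 13.7 in siNC-S, 367 ± 7.67 in PBS and 108 ± 5.86 in parental libraries (mean ± SD, n = 3, 3, 2 and 3). It was not called in siNC-U over PBS (-0.08 ± 0.067, adjusted p = 0.28; -0.28, adjusted p = 0.000585, with upper-quartile factors) and was lower in siNC-S over PBS, at -0.36 ± 0.067.

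Cancer-testis genes, normally confined to the germ line, included abundant MAGE transcripts. MAGEA3 had 273, 253 and 269 TPM in siNC-U, 243, 239.7 and 233 in siNC-S, 295 and 311 in PBS and 431, 469 and 452 in parental libraries. MAGEA12 had 176, 173 and 165 TPM in siNC-U, 189, 178 and 197 in siNC-S, 168 and 177 in PBS and 213, 223 and 218 in parental libraries. MAGEB2 had 176, 171 and 181 TPM in siNC-U, 161, 167 and 169 in siNC-S, 182 and 186 in PBS and 144, 148 and 144 in parental libraries. MAGEA3 and MAGEA6 are near-identical copies on the X chromosome, so how their reads were divided is uncertain. Only 8 of 20 members could be tested, of which 2 were called higher and 3 lower in siNC-U over PBS (0 and 5 with upper-quartile factors; 2 and 1 without PBS replicate 2 or without siNC-U replicate 3), and 0 and 4 in siNC-S over PBS. Among noncoding RNAs MALAT1, a nuclear RNA of speckles, had 392, 443 and 437 TPM in siNC-U, 807, 792 and 1047 in siNC-S, 676 and 570.2 in PBS and 1205, 1115 and 1274 in parental libraries. NEAT1, the core of paraspeckles, had 154, 165 and 152 TPM in siNC-U, 199, 219 and 252 in siNC-S, 265 and 243 in PBS and 467, 472 and 509 in parental libraries. Both were highest in the parental line and lowest in siNC-U. SNHG1, a host of small nucleolar RNAs, had 326, 376 and 379 TPM in siNC-U, 136, 133 and 159.8 in siNC-S, 209.6 and 224 in PBS and 389.6, 436 and 396 in parental libraries. It was lowest in siNC-S. NORAD, another noncoding RNA, had 314 ± 6.41 TPM in siNC-U, 276 ± 23.6 in siNC-S, 244 ± 17.5 in PBS and 219 ± 6.16 in parental libraries. EEF1A1, a translation elongation factor, had 1545, 1449 and 1506 TPM in siNC-U, 664, 728 and 656 in siNC-S, 1243 and 1226 in PBS and 3413, 3408 and 3391 in parental libraries.

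The extremes of siNC-S against the other tested groups were mostly genes nearly without reads in a table. In siNC-U over siNC-S all 5 of the largest rises and all 5 of the largest falls averaged under 1 CPM over a table, control and depleted libraries together. Of those rises 4 overlap another gene on their strand. In siNC-S over PBS 5 of 5 rises and 4 of 5 falls averaged under 1 CPM over a table, and the remaining fall had 53 reads over the siNC-S libraries. In all, 31 genes had at least 10 CPM in the SMYD3 siRNA table and under 1 CPM in both the other count tables, 17 had the reverse and 12 differed that way between the UHRF1 siRNA and antisense oligonucleotide tables, which list the same gene models. These values are given as counts only. The next genes lay outside that pattern by the means of whole tables and were chosen after their values were seen. TRIM31, an interferon-responsive ubiquitin ligase, had 0.374, 0.368 and 0.732 TPM in siNC-U, 144, 149 and 150.2 in siNC-S, 7.64 and 5.21 in PBS and 2.99, 3.18 and 4.28 in parental libraries. Its siNC-U values rest on 70 reads over the group and are near 0. CP (ceruloplasmin), a copper-binding ferroxidase, had 2.13, 1.04 and 1.19 TPM in siNC-U, 229, 229 and 218 in siNC-S, 21.0 and 19.2 in PBS and 10.8, 8.69 and 10.4 in parental libraries. VTCN1 (B7-H4), an inhibitor of T cells, had 1.64, 1.95 and 2.18 TPM in siNC-U, 129, 179.9 and 168 in siNC-S, 32.8 and 28.9 in PBS and 14.6, 12.7 and 14.6 in parental libraries. All 3 ran in the order siNC-S, PBS, parental and siNC-U with no overlap. ASNS (asparagine synthetase), a target of the amino acid response, had 4.35, 6.36 and 5.88 TPM in siNC-U, 27.7, 23.0 and 27.8 in siNC-S, 1.46 and 1.63 in PBS and 41.4, 46.9 and 45.6 in parental libraries, with PBS lowest. CHTF8 and MATR3, also outside that pattern, were low in some groups all the same. Mean levels of CHTF8 were 2.18 TPM in siNC-U, 178 in siNC-S, 4.49 in PBS and 95.4 in parental libraries. Those of MATR3 were 90.8, 2.73, 94.3 and 62.7 TPM in the same groups. The part of counting in all these genes was not tested.

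The spread of single genes over the 4 groups was wide. Of 10989 protein-coding genes with at least 10 CPM in a group, 9110 stayed within 5 percentile points inside each group. The median distance of those between their highest and lowest group was 12.2 points. It exceeded 5 points for 86.2%, 10 points for 61.5%, 25 points for 14.4% and 50 points for 2.57% (234 genes). All 10 of the widest, EEF1G at 99.4 points among them, had under 1 CPM in a table, and 8 of the 10 overlap another gene on their strand, so their spread is uncertain. FOSB, the 24th, spanned 12.4 to 99.3 on the percentile scale.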

How the data were processed

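Poly(A)-selected stranded RNA libraries were sequenced. The submitters' processing notes name hg38, bcl2fastq and Bowtie. For the counting tool and its annotation release, the sources used here give nothing. Counts of reads per gene were deposited by the authors for the siNC-U, siNC-S and PBS tables. The parental table, as deposited, holds a signal: reads that the authors had scaled by a single factor in each library, since dividing by the smallest step gave whole reads for 100% of values within 0.01. The siNC-S table had 23588 of 60554 lines without a symbol. They were named by identifier from GENCODE release 29 where possible, and 0.066% to 0.070% of control reads stayed unnamed. The siNC-U and PBS tables hold 57316 lines and the parental one 17421, by an unstated rule. The depleted libraries served only for their rank agreement with the controls.

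Mitochondrial genes were left out, and CPM and TPM (with the authors' gene lengths) were computed over the 17059 symbols in all tables. Ranks used 15000 genes with a mean CPM of 1 or more. Of 54736 symbols in the 3 count tables, 20277 passed filterByExpr. They were fitted in edgeR 4.0.16 under R 4.3.3 by a robust quasi-likelihood F-test with TMM factors. DESeq2 1.42.0, upper-quartile factors, other filters, the replicate block, the recovered parental reads and leaving out each library were alternatives. Tables were written with Python 3.11.15. Replicates are biological per the series text, with no word on separate cultures, so p-values measure the spread between these libraries.

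The members and gene lists were chosen with earlier results of these data known. Named by rule were the 4 highest members of each list, other-lineage markers above 1 CPM, the 15 highest genes, the 10 widest rank spreads, the 5 largest rises and falls of each pair and a fixed set of interferon genes and study targets. Not every gene under this rule is printed, and some genes and 1 list are not reported here. Named for their role after their values were seen were EPCAM, TP63, KRT5, KRT14, VIM, CDH2, MKI67, IFNB1, IFNL1, IFNGR1, JAK1, TYK2, SOCS1, SOCS3, TAP1, CSF2, IL6, PTPRC, EGR1, HSP90B1, HSPA5, P4HB, EEF1A1, CD2, MS4A1, NKG7, COL1A2, COL3A1, DCN, PDGFRA, TRIM31, CP, VTCN1 and ASNS. CHTF8 and MATR3 were also named after their values were seen, for their low levels in some groups. Promoter windows are from RefSeq, GRCh38.p14.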

Additional observations from a re-analysis of the deposited data

How the results depend on the processing

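Every count of called genes stayed within 1.5 times under the alternatives run. DESeq2 called 6441 higher and 6327 lower in siNC-U over PBS, 7086 and 7545 in siNC-U over siNC-S, and 5554 and 5408 in siNC-S over PBS. Leaving out a library gave 11231 to 13667 calls in siNC-U over PBS, 14341 to 15266 in siNC-U over siNC-S and 9187 to 11769 in siNC-S over PBS. With the replicate block the counts were 6495 higher and 6569 lower in siNC-U over PBS, 7381 and 7749 in siNC-U over siNC-S, and 5505 and 5691 in siNC-S over PBS. With the recovered parental reads in the fit, over 16949 genes, they were 6658 and 5491, 7092 and 6209, and 5497 and 5534 in the same pairs. Deviations from the group mean correlated by at most 0.0359 between libraries of the same number. In siNC-U over siNC-S these correlations were 0.0147, 0.0226 and 0.0255, and those between unlike numbers were all negative. Deviations from a group mean cancel out within the group, so the negative values largely follow from the positive ones. The 2 PBS libraries deviate as mirror images of each other, so the pairs with PBS cannot show pairing. Whether the numbers pair samples stays undecided. Of the fitted differences of single genes printed above, 838 alternative values kept their status as called or not called. The call was lost in 7 (all IFI27 in siNC-U over PBS) and gained in 3 (CDKN1A in siNC-U over PBS, 2 times, and MX1 in siNC-U over siNC-S). No called difference turned. Some that were not called did change sign. LAMB3 in siNC-S over PBS ran from -0.08 to 0.18 when a library was left out, and MX1 in siNC-U over siNC-S turned with upper-quartile factors.

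PBS had the highest rho with each other group under every alternative run. With no filter siNC-U and siNC-S passed PBS and parental in the order of pairs. The values of rho follow in the order siNC-U and siNC-S, siNC-U and PBS, siNC-U and parental, siNC-S and PBS, siNC-S and parental, PBS and parental. By TPM it was 0.869, 0.929, 0.834, 0.922, 0.838 and 0.871. At a mean CPM of 10 or more it was 0.792, 0.883, 0.760, 0.877, 0.763 and 0.830. With no filter it was 0.918, 0.956, 0.893, 0.951, 0.897 and 0.916. Over protein-coding genes it was 0.872, 0.930, 0.851, 0.926, 0.852 and 0.893. Leaving out a library moved it within 0.888 to 0.894, 0.939 to 0.944, 0.865 to 0.868, 0.933 to 0.939, 0.866 to 0.871 and 0.897 to 0.899, and the shared top 500 within 228 to 233. The cause was not tested.

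The median percentile of interferon-stimulated genes in siNC-U, siNC-S, PBS and parental libraries was 96.0, 97.9, 92.9 and 87.7 by CPM, 91.8, 95.8, 86.6 and 80.1 at a mean CPM of 10 or more, and 93.1, 96.4, 88.8 and 83.9 over protein-coding genes. Leaving out a library kept it within 93.9 to 94.1, 96.7 to 96.9, 90.0 to 90.3 and 85.1 to 86.2. For all lists 1022 alternative levels stayed within the spread between replicates and 254 moved. Of the list counts 1105 kept within 1.5 times, 9 moved and 5 turned. With upper-quartile factors sensing genes in siNC-U over siNC-S had 7 higher and 9 lower, and in siNC-U over PBS cell cycle genes had 13 and 14. Cancer-testis genes in siNC-U over PBS had 2 higher and 1 lower with parental reads in the fit, without PBS replicate 2 and without siNC-U replicate 3. Leaving out list members that overlap another gene, an alternative chosen after seeing the data, gave interferon-stimulated counts of 53 higher and 5 lower of 61 in siNC-U over PBS.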
